A study of Mus musculus with 14 samples.

Results

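The AP-1 and early response factors examined here are 10 genes: Fos, Fosb, Fosl1 and Fosl2, which encode the Fos proteins; Jun, Junb and Jund, which encode the Jun proteins; and Atf3, Egr1 and Ier3. They were chosen by gene symbol, through probe sets that carry a single symbol in the array annotation. Of the 10, 9 have such a probe set, out of 22180 genes measured in this way. The only probe set of Fosl1 also carries the symbol Ccdc85b, so that Fosl1 is not analysed here. RNA came from luminal cells of adult virgin female mice aged 4 to 6 months of BALB/cByJ JAX and C57Bl/6 stock. Lu-pos cells (CD24-positive, ICAM-1-positive) were compared with Lu-neg cells (CD24-positive, ICAM-1-negative), which were sorted from the same 7 pools of at least 12 mammary glands each and read on 1 Affymetrix array per sample. Which strain went into which pool is not stated in the sources read here. All cells had been freed from the gland by warm enzyme digestion before the sort, and no undigested tissue was profiled, so that expression in the gland and induction during dissociation cannot be told apart for any gene below.

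AP-1 is a transcription factor made of pairs of basic leucine zipper (bZIP) proteins, in which a Fos or Atf protein joins a Jun protein, or Jun proteins pair with each other. Fos, Fosb, Jun, Junb, Atf3, Egr1 and Ier3 are early response genes: growth factors, serum and stress switch them on within minutes, with no new protein synthesis, and their messenger RNAs are short-lived. In mammary tissue AP-1 is known from growth factor signalling and from the remodelling of the gland after weaning. The same genes are known to come up when tissues are digested to single cells, which makes their spread between pools a point of interest.

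The promoters of 4 members are shown because they stand for the patterns that follow: Fosl2 and Ier3 were higher in Lu-pos cells, and Fos and Fosb varied together between pools. Each sequence holds the 250 bases before the RefSeq start of the gene, 5′ to 3′ on the gene's strand, in assembly GRCm38.p6, with motif matches in capitals.
Fosl2, chr5:32136222-32136471, plus strand: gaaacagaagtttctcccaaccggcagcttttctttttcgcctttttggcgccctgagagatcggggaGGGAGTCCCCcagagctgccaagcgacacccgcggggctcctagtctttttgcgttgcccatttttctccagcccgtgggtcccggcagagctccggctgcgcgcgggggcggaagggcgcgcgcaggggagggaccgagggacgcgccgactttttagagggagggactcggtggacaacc
Ier3, chr17:35821463-35821712, plus strand: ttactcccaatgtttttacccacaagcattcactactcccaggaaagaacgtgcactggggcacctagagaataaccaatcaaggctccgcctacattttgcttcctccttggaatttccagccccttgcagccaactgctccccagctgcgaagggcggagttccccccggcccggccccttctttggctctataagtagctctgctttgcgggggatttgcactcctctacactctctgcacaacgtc
Fos, chr12:85473640-85473889, plus strand: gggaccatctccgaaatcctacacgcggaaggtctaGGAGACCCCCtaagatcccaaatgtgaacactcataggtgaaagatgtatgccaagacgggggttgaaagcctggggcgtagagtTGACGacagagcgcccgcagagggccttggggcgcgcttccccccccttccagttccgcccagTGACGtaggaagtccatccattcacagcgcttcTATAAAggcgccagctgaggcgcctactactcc
Fosb, chr7:19310046-19310295, minus strand: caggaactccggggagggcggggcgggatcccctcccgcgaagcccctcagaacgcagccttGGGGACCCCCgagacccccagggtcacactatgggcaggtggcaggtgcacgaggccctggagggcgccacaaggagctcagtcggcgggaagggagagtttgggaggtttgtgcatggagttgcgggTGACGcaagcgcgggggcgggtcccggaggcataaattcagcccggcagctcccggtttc
Of the 10 members, 8 have an entry in the promoter table used. Both strands were searched for the AP-1 element TGACTCA (TRE), the cAMP response element TGACGTCA (CRE), its core TGACG, which lies within the full CRE, and the variant TGACATCA, and for the CArG box of serum response factor and the kappa B site. The TATA box, TATAAA, was searched on the gene's strand only. Among 32851 promoter windows of the same length, 4.46% held the TRE, 1.55% the CRE, 17.8% the core TGACG, 2.93% TGACATCA, 1.47% a CArG box, 5.0% a kappa B site and 7.59% a TATA box. The core TGACG was found in Fos at 2 positions, 129 and 66 bases before the start, and in Fosb, Junb and Atf3. The kappa B site was found in Fosl2, Fos and Fosb, TGACATCA in Jun, and TATAAA in Fos. None of these motifs was found in the windows of Ier3 or Jund. These matches describe letters in a window and were not tied to the array values.

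The values are log2 intensities as deposited, which run between 1.16 and 12.41 over all arrays. Olfactory and vomeronasal receptor genes, which serve in sensory neurons, set a background level of 3.73. All 9 measured members lay above it on every array, with means between 3.89 and 7.03 log2 units above background. Array medians lay between 3.46 and 3.58. All 8 luminal markers, among them Krt8, Krt18 and Epcam, were above background, 1 of them (Krt19) was lower in Lu-pos cells, and their mean over the list lay between 10.09 and 10.34 on Lu-pos arrays and between 10.14 and 10.39 on Lu-neg arrays. Over all genes, 964 were higher in Lu-pos cells, 4.35% of those tested, and 1595 were lower, 7.19%, at an adjusted p under 0.05 from limma with the pool as a block. Higher genes made up 37.7% of the calls, and 53.6% with arrays scaled to a common 75th percentile or 50.0% with arrays scaled to 6 housekeeping genes. The p-values rest on how the difference between Lu-pos and Lu-neg varied over these 7 pools, with the variance estimate moderated across genes. Differences in level between pools are taken out by the block.

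Of the 9 measured members, 2 were higher in Lu-pos cells (Fosl2 and Ier3), beside 4.35% of all genes, and 0 were lower, beside 7.19% of all genes. At an unadjusted p under 0.05 the counts were also 2 and 0. The median log2 fold change of the 9 members was 0.08, that of all genes -0.02. The other 7 members had log2 fold changes between -0.17 and 0.15. The populations overlapped on the arrays for all 9 members, and the share of all genes with such overlap was not computed.

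Fosl2, which encodes Fra-2, a Fos protein without the strong activation domain of Fos itself, had the largest difference among the 9 measured members, a ranking that leaves out Fosl1. The probe set that Fosl1 shares with Ccdc85b read between 8.04 and 9.33 in Lu-pos and between 6.67 and 7.87 in Lu-neg cells. By the annotation used here, that signal cannot be assigned to either gene. The paper names Fosl1 among the p53 target genes that its own array analysis found overexpressed in Lu-pos cells. The log2 level of Fosl2 ran between 7.61 and 8.78 with a median of 7.98 in Lu-pos cells, and between 6.47 and 7.85 with a median of 7.12 in Lu-neg cells. The ranges overlapped only through the Lu-neg array of pool 2 (7.85), which was above the Lu-pos arrays of pools 4 and 6. Fosl2 was higher in Lu-pos in 7 of 7 pools, by between 0.46 and 1.88 log2 units, and the 3 largest differences were those of pools 3 (1.88), 1 (1.66) and 5 (1.42). The mean was 8.16 ± 0.49 in Lu-pos and 7.10 ± 0.42 in Lu-neg cells (SD, n = 7 each), a 2.09-fold difference. The log2 fold change was 1.06 (standard error 0.18, 95% interval 0.65 to 1.48, adjusted p = 0.00611 from limma). With any 1 pool left out it stayed called, with an adjusted p between 0.00787 and 0.0195.

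Ier3 encodes IEX-1, a short-lived stress and NF-kappa B response protein that acts on cell survival and contains no bZIP. Its log2 level ran between 9.75 and 10.30 with a median of 10.09 in Lu-pos cells, and between 9.41 and 10.05 with a median of 9.67 in Lu-neg cells. The highest Lu-neg array, that of pool 2, lay within the Lu-pos range. Ier3 was higher in Lu-pos in 7 of 7 pools, but by only 0.06 in pool 6 and 0.08 in pool 4, against 0.81 in pool 3. The mean was 10.04 ± 0.23 in Lu-pos and 9.64 ± 0.22 in Lu-neg cells (SD, n = 7 each), a 1.32-fold difference. The log2 fold change was 0.40 (standard error 0.11, 95% interval 0.16 to 0.64, adjusted p = 0.0434 from limma). The call was lost without pool 1, 2, 3, 5 or 7, with an adjusted p between 0.0693 and 0.107, and with array weights (adjusted p = 0.0623).

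Markers of other cell types were read beside these 2 rises. Over all genes, 4.35% were called higher and 7.19% lower. Of the basal and myoepithelial markers, 0 of 10 were called, and 9 lay above background. Their mean over the list lay between 4.85 and 6.13 on Lu-pos arrays and between 4.03 and 6.55 on Lu-neg arrays. Their median log2 fold change was 0.149, with 0.522 in pools 1 to 3 and -0.0438 in pools 4 to 7. The largest was Krt17 at 1.59 (limma adjusted p = 0.139), and only Myh11 (-0.11) and Snai2 (-0.08) lay below 0. A missed threshold does not show equal basal content. Of the immune markers 0 of 12 were called and 3 lay above background, with list means between 3.22 and 3.55 in Lu-pos and between 2.92 and 3.54 in Lu-neg. These 3 were Cd68 (mean 6.27 in Lu-pos and 5.60 in Lu-neg), Lyz2 (4.33 and 4.27) and Nkg7 (4.27 and 4.29). Ptprc, the common leukocyte antigen gene, was not among them. Of 9 endothelial markers 1 was lower in Lu-pos (6 above background, list means between 3.53 and 5.69 in Lu-pos and between 3.94 and 5.76 in Lu-neg), and of 10 fibroblast and adipocyte markers 1 was lower (6 above background, list means between 4.81 and 5.51 in Lu-pos and between 4.15 and 5.42 in Lu-neg). The brightest of the fibroblast and adipocyte markers were Dcn (mean 8.89 in Lu-pos and 9.38 in Lu-neg) and Fabp4 (8.36 and 8.47). The part of other cell types in the values of Fosl2 and Ier3 was not tested. In sorted bulk samples, fewer cells that express a gene and less RNA of it per cell cannot be told apart.

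**Figure D1:**
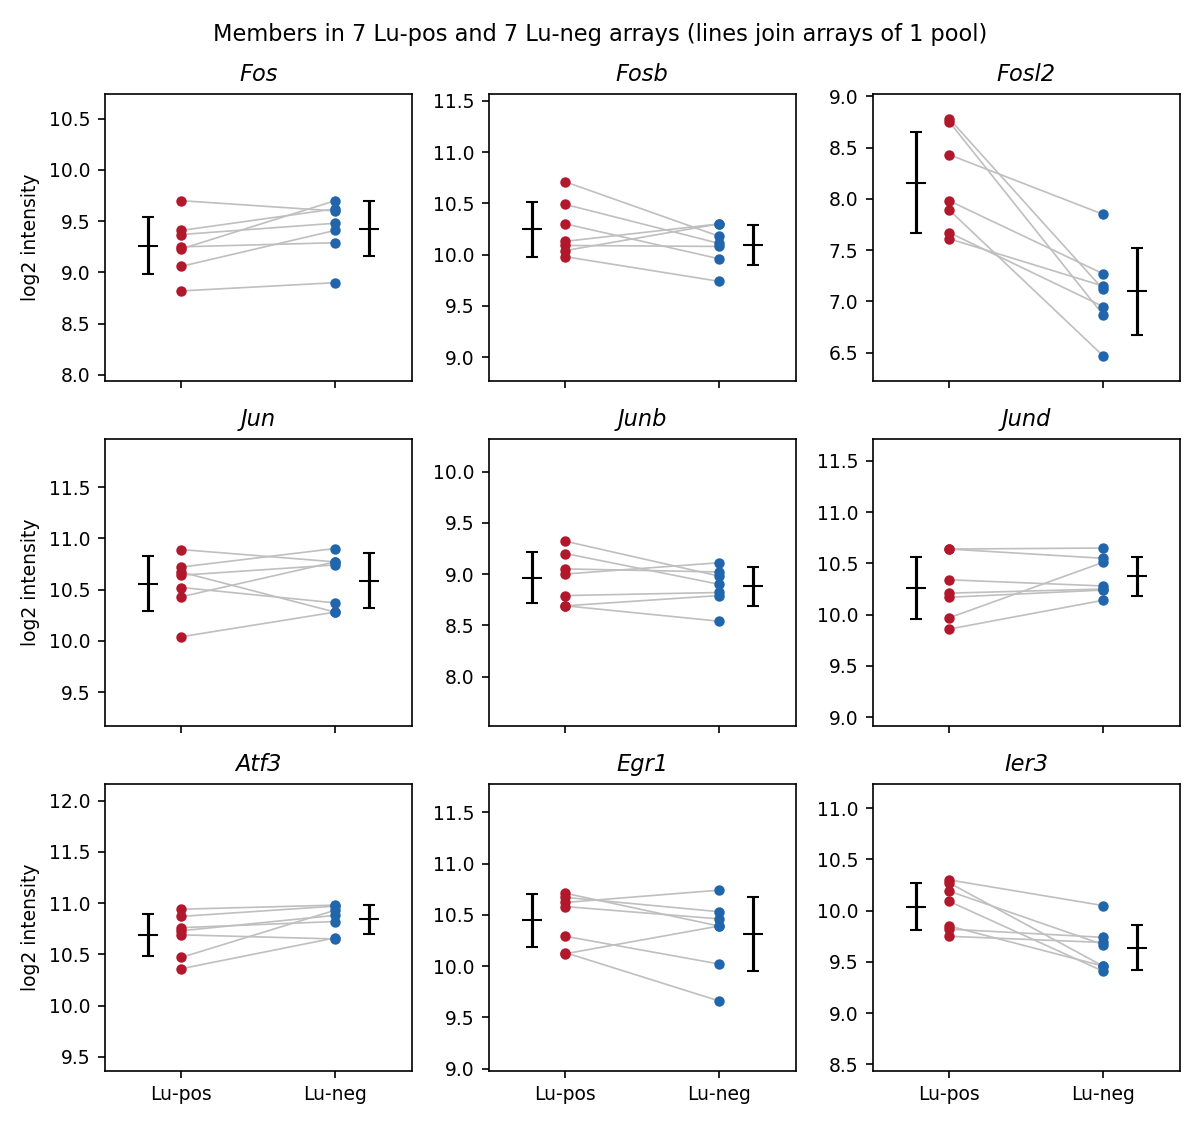
Log2 intensity of each measured member on the 7 Lu-pos arrays (red, left) and the 7 Lu-neg arrays (blue, right), with grey lines joining arrays of 1 pool and black bars giving the mean ± SD; every panel spans the same number of log2 units. Lines fall to the right in all 7 pools for Fosl2 (means 8.16 and 7.10) and Ier3 (means 10.04 and 9.64), and run both ways for the others.

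Fos, the founding member of the family, ran between 8.82 and 9.70 with a median of 9.25 in Lu-pos cells, and between 8.90 and 9.70 with a median of 9.48 in Lu-neg cells. It was lower in Lu-pos in 6 of 7 pools and higher in pool 7. The log2 fold change was -0.17 (standard error 0.09, 95% interval -0.36 to 0.03, adjusted p = 0.307 from limma). Fosb, its close relative, ran between 9.98 and 10.71 with a median of 10.13 in Lu-pos, and between 9.74 and 10.30 with a median of 10.11 in Lu-neg. Its log2 fold change was 0.15 (95% interval -0.09 to 0.40), above 0 in 5 of 7 pools. The populations overlapped for both genes.

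Jun encodes the main partner of Fos. It ran between 10.04 and 10.89 with a median of 10.64 in Lu-pos cells, and between 10.28 and 10.90 with a median of 10.74 in Lu-neg cells. The log2 fold change was -0.03 (95% interval -0.26 to 0.20), with 3 pools higher and 4 lower, and its sign turned with the scaling of the arrays. Junb, which can oppose Jun, ran between 8.69 and 9.32 in Lu-pos, with a median of 9.0, and between 8.54 and 9.11 in Lu-neg, with a median of 8.90. Its log2 fold change was 0.08 (95% interval -0.11 to 0.27). Jund is the Jun gene least dependent on stimulation. It ran between 9.86 and 10.64 with a median of 10.21 in Lu-pos, and between 10.14 and 10.65 with a median of 10.28 in Lu-neg, with a log2 fold change of -0.11 (95% interval -0.32 to 0.10). Jund is the only member with a second probe set, which read between 7.23 and 7.85 in Lu-pos and between 7.26 and 8.08 in Lu-neg; the brighter one stood for the gene.

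Atf3, a stress-induced bZIP protein that pairs with Jun proteins, ran between 10.36 and 10.94 with a median of 10.73 in Lu-pos cells, and between 10.65 and 10.98 with a median of 10.88 in Lu-neg cells. It was lower in Lu-pos in 6 of 7 pools, and its log2 fold change was -0.15 (standard error 0.08, 95% interval -0.34 to 0.03, adjusted p = 0.324 from limma). Egr1, a zinc finger protein and no part of AP-1, ran between 10.12 and 10.71 with a median of 10.58 in Lu-pos, and between 9.66 and 10.74 with a median of 10.39 in Lu-neg. Its log2 fold change was 0.13 (95% interval -0.09 to 0.36), above 0 in 5 of 7 pools. For these 7 members the far end of the 95% interval corresponded to at most 1.32-fold, the value of Fosb. These intervals bound a difference on the array scale, where amplification and probe summary can compress it, and a missed threshold does not show equal levels.

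**Figure D2:**
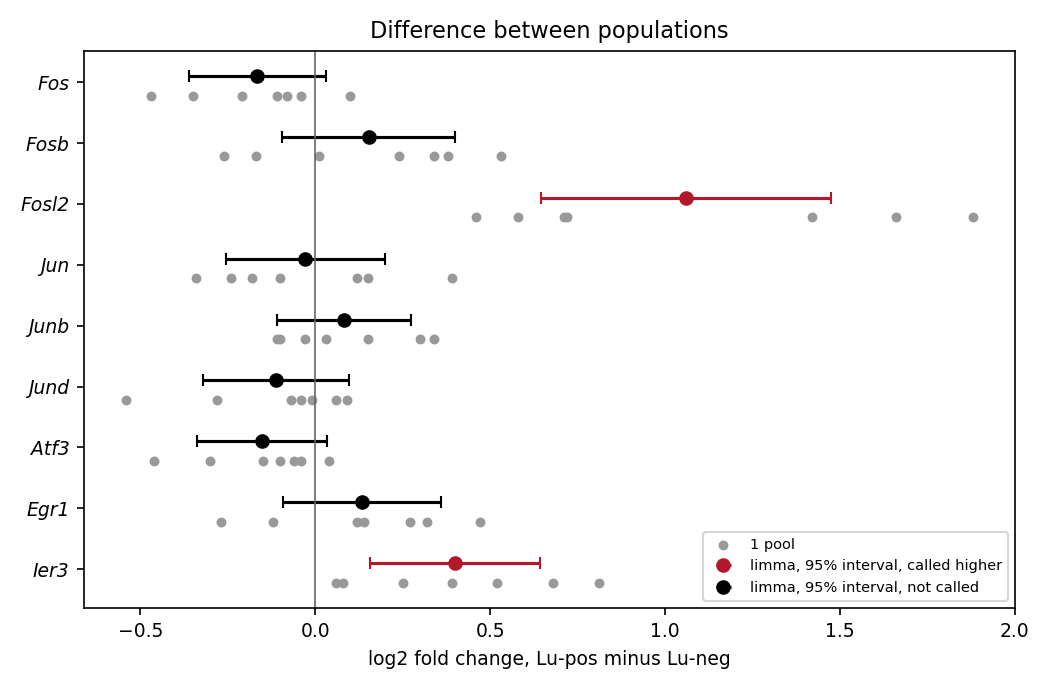
Log2 fold change of each measured member, Lu-pos minus Lu-neg, with its 95% interval from limma (coloured and black points) and the difference in each of the 7 pools (grey points). The intervals of Fosl2 (0.65 to 1.48) and Ier3 (0.16 to 0.64) lie above 0, and those of the other 7 members include 0.

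The spread between pools was taken as the SD, over the 7 pools, of the mean of a pool's Lu-pos and Lu-neg arrays, a value that does not use the difference between the populations. Of the 11029 genes above background, 1103 (10%) had an SD at or above the 90th percentile, 0.431, and of the 9 members 0 did. The median SD of the members was 0.228, and that of the genes above background 0.231. Within the Lu-pos arrays alone the medians were 0.267 and 0.311, and within the Lu-neg arrays alone 0.223 and 0.285. The pool-mean SDs of the members lay around the middle of those of genes above background. Within a population most lay below it: the SD was under the median of those genes for 8 of 9 members on the Lu-pos arrays and for 7 of 9 on the Lu-neg arrays. The comparison with genes above background was not matched for level. The median SD was 0.119 for the 8 luminal markers and 0.13 for the 6 housekeeping genes, below that of the members. It was 0.336 for the 13 heat shock and chaperone genes above background. These lists had median levels between 9.11 and 9.98, and the members 10.25 in Lu-pos and 10.1 in Lu-neg cells. These are descriptions with no test.

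Among the members Fosl2 had the widest spread, with an SD of 0.356, larger than that of 81.9% of genes above background. Egr1 followed at 0.285 (67.8%) and Fos at 0.257 (59.0%). Jun had 0.236, Jund 0.228, Junb 0.20 and Fosb 0.182. The narrowest were Ier3 at 0.174 (27.1%) and Atf3 at 0.154 (19.6%). For 7 of the 9 members the SD between pools was larger than the size of the difference between Lu-pos and Lu-neg. Fosl2 and Ier3 were the exceptions. The share of all genes for which this held was not computed, so the count is not shown to be particular to the members.

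Pools did not shift all members alike. Pool 7 had the highest pool mean for Fos (9.65), Fosb (10.45), Jun (10.83) and Junb (9.15), and 7 members lay above their own mean there. Pool 2 had the highest for Fosl2 (8.14), Jund (10.64), Atf3 (10.96) and Ier3 (10.18), and 8 members lay above their own mean. In pool 5 all but 1 of the members, Jun, lay below their own mean, and it was the lowest pool for Fosl2 (7.18), Atf3 (10.51) and Ier3 (9.66). Pool 1 was the lowest for Fos (8.86), Fosb (9.86) and Jun (10.16), while Fosl2 and Jund lay 0.32 and 0.28 above their means there. Across pools the median deviation of the members ran between -0.12 and 0.22, and that of all genes above background between -0.05 and 0.02.

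The lists differed in how they moved between pools. The 39 measured early response genes outside the members, described below, moved partly like the members. Their median deviation was 0.159 in pool 2, 0.176 in pool 7 and lowest in pool 5 (-0.204), against 0.171, 0.221 and -0.124 for the members. In pools 1 and 6 it was -0.0014 and -0.109, against -0.116 and 0.04 for the members. The 15 measured heat shock and chaperone genes, another group known to answer to cell stress, had their lowest median deviation in pool 1 (-0.298) and their highest in pool 4 (0.304). For the 13 of them above background the median SD between pools was 0.336, with 4 at or past the 90th percentile. The 9 basal markers above background had a median SD of 0.840, with 7 at or past that percentile. Over all 10 measured, the median deviation was largest in pool 2, at 0.911. Pool 2 was also the pool with the highest Fosl2, Jund, Atf3 and Ier3, and the part of basal cells in those values was not tested. The pool means of pools 1 to 3 and pools 4 to 7 did not overlap for Fosl2, Jund and Jun. In pools 1 to 3 Fosl2 lay between 7.81 and 8.14 against 7.18 to 7.63 in pools 4 to 7. Jund lay between 10.31 and 10.64 against at most 10.24, and Jun between 10.16 and 10.47 against 10.60 to 10.83. The share of all genes without such overlap was not computed, so this is not shown to be particular to the members. No label explains this split of the pools, which was known from earlier results, and it was not tested here.

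**Figure D3:**
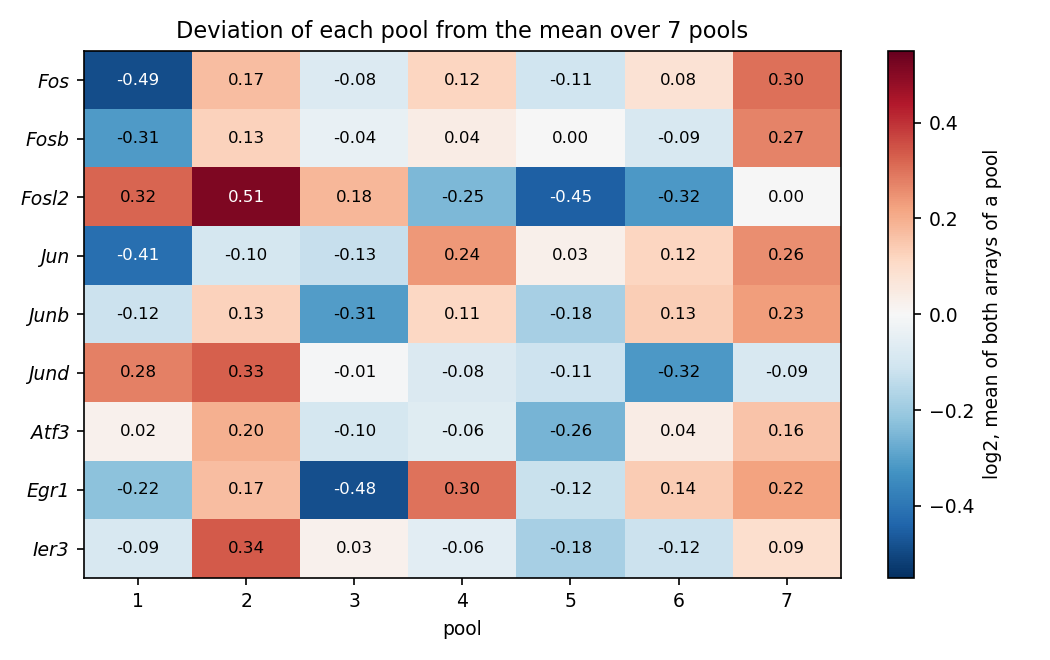
Deviation of each pool from the mean over the 7 pools for each measured member, in log2 units, as the mean of the pool's Lu-pos and Lu-neg arrays; red is above and blue below the gene's mean. Fos, Fosb and Jun are lowest in pool 1 and highest in pool 7, Fosl2 runs between -0.45 in pool 5 and 0.51 in pool 2, and no column is of 1 colour.

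Likeness to Fos was measured as the root mean square difference, over the 14 arrays, of log2 values centred on the mean of each population. A gene with no variation would score 0.254. Fosb was the nearest of all genes above background, at 0.134, followed among the members by Jun at 0.173 and Junb at 0.194. Egr1 (0.219), Atf3 (0.227) and Ier3 (0.240) lay further off. Jund (0.380) and Fosl2 (0.507) were farther from Fos than a gene with no variation. The 5 nearest genes that are no members were Rhob, a small GTPase gene and itself an early response gene (0.147), Znhit2 (0.160), the sulfate transporter gene Slc26a2 (0.162), the Fc receptor gene Fcgr2b (0.163) and the sorting nexin gene Snx5 (0.168). All arrays share 1 platform and 1 normalization, and these values are descriptions with no test.

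Early response genes outside the members included larger differences. Of 39 measured genes of that list, all above background, 15 were higher and 5 lower in Lu-pos cells (limma, adjusted p under 0.05), beside 4.35% and 7.19% of all genes. The list's median log2 change was 0.32, that of all genes -0.02. This list, like the members and the lists below, was chosen with earlier results of these data known. The distance of its counts from those shares is therefore a description and no independent test. Egr3, a sister gene of Egr1, had the largest rise. It lay between 7.01 and 8.24 with a median of 7.74 in Lu-pos cells, and between 4.09 and 7.04 with a median of 5.11 in Lu-neg cells, where pool 2 alone exceeded 5.72. The log2 fold change of Egr3 was 2.58 (standard error 0.28, adjusted p = 0.000883 from limma), and it was higher in 7 of 7 pools. The sister genes Egr2 and Egr4 had 0.52 (adjusted p = 0.17) and 0.10 (adjusted p = 0.673). Ccn2, a secreted matrix protein, was 4.47-fold higher (log2 fold change 2.16, standard error 0.27) by the brighter of its 2 probe sets. The mean of both gave 1.38, and pools 1 to 3 alone 2.17 with no call (limma adjusted p = 0.055).

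The 3 orphan nuclear receptor genes of the Nr4a family, early response genes like Fos, were each higher in 7 of 7 pools, with log2 fold changes of 0.80 for Nr4a1, 1.43 for Nr4a2 and 1.42 for Nr4a3 (adjusted p = 0.00897, 0.00404 and 0.00406 from limma). In pools 1 to 3 alone the values were 1.11, 1.96 and 1.83, and in pools 4 to 7 alone 0.565, 1.04 and 1.12, where none of the 3 was called (limma adjusted p = 0.149, 0.0749 and 0.0688). Ier5 rose by 0.69 (adjusted p = 0.00485), and was called in neither set of pools alone (adjusted p = 0.0612 and 0.0624). On the other side, Gadd45g, a growth arrest and stress gene, fell to 6.76 ± 0.63 in Lu-pos, against 8.36 ± 0.52 in Lu-neg (SD over 7 arrays each; log2 fold change -1.60, adjusted p = 0.000404), and Socs3, a feedback inhibitor of cytokine signalling, fell to 7.74 ± 0.82 in Lu-pos, against 9.01 ± 0.46 in Lu-neg (log2 fold change -1.27, adjusted p = 0.00118). Klf2, a Kruppel-like factor gene, had a log2 fold change of -0.98 (adjusted p = 0.0169) and was not called without the pool as a block (adjusted p = 0.179) or in pools 1 to 3 alone (-0.53, adjusted p = 0.445). The Nr4a genes, Ier5, Klf2, Egr2, Egr4 and, below, Srf were named after their values were seen. Of the 39 genes, 8 had an SD between pools at or past the 90th percentile, and the list's median SD was 0.311.

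Of 18 measured bZIP genes whose proteins can pair with Fos or Jun proteins or bind related sites, 15 lay above background. Of the 18, 2 were higher and 1 lower, beside 4.35% and 7.19% of all genes, with a median log2 fold change of 0.04. Creb5, a partner of Jun, had 9.55 ± 0.38 in Lu-pos and 7.47 ± 0.89 in Lu-neg cells (SD, n = 7 each), 4.24-fold higher (log2 fold change 2.09, adjusted p = 0.000969 from limma). Maff, a small Maf protein, was 1.84-fold higher (0.88, adjusted p = 0.00132), and was not called in pools 4 to 7 alone (adjusted p = 0.0504). Batf, which pairs with Jun proteins and is best known in lymphocytes, was 2.49-fold lower (-1.32, adjusted p = 0.0226) and lower in 6 of 7 pools. Its call was lost without pool 1, 2, 3, 6 or 7, with an adjusted p between 0.0565 and 0.0654. Batf had -2.11 in pools 1 to 3 alone and -0.72, not called, in pools 4 to 7 alone (limma adjusted p = 0.339). The immune markers read beside it are those given above.

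Among 23 measured kinases and factors that act upstream of AP-1, or on the turnover of its proteins, 4 were higher and 1 lower. All genes had 4.35% higher and 7.19% lower. The median log2 fold change of the list was 0.13. Fbxw7, part of a ubiquitin ligase that marks Jun for degradation, was higher by 0.74 (standard error 0.14, adjusted p = 0.01), and Rps6ka5, which encodes the kinase MSK1, by 0.73 (adjusted p = 0.0121), at 3.96 in Lu-pos and, under the background level, 3.23 in Lu-neg cells. In pools 4 to 7 alone neither was called (Fbxw7 0.465, adjusted p = 0.128; Rps6ka5 0.59, adjusted p = 0.199), and in pools 1 to 3 alone Fbxw7 had 1.11. Map2k2, a kinase of the ERK cascade, was lower by a log2 fold change of -0.49 (adjusted p = 0.0171) and was not called without the pool as a block (adjusted p = 0.084) or in either set of pools alone (adjusted p = 0.282 and 0.0943). Srf, the serum response factor gene, had 0.39 (adjusted p = 0.0898).

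Genes described as AP-1 targets had calls in both directions. Of 25 measured, 18 lay above background. Of the 25, 4 were higher and 5 lower, beside 4.35% and 7.19% of all genes, and the median log2 change was 0.10. The 5 lower genes include Mmp13, under the background level in both populations (2.46 in Lu-pos and 2.85 in Lu-neg). They also include Dcn, read above as a fibroblast marker. The hyaluronan receptor gene Cd44 was 3.80-fold higher (log2 fold change 1.93, adjusted p = 0.000352 from limma) and Lif, a cytokine gene, 3.15-fold higher (1.65, adjusted p = 0.000404). Tgfb1, a growth factor gene, was 2.93-fold lower (-1.55, adjusted p = 0.000831) and Mt2, a metallothionein gene, 1.76-fold lower (-0.81, adjusted p = 0.000829), each in 7 of 7 pools. Of the 15 heat shock and chaperone genes, 1 was higher and 1 lower, beside the same shares of all genes, with a median of 0.05. The higher gene was Cryab, a small heat shock protein gene that basal mammary cells also express. It had 9.37 ± 0.35 in Lu-pos and 6.95 ± 1.35 in Lu-neg (SD, n = 7 each), a log2 fold change of 2.42 (limma adjusted p = 0.00695). The lower gene was Dnajb4, at about the background level in both (-0.41, limma adjusted p = 0.0111). In pools 4 to 7 alone Cryab had 1.79 and was not called (adjusted p = 0.0751), against 3.25 in pools 1 to 3, and Dnajb4 was called neither there (adjusted p = 0.129) nor in pools 1 to 3 (adjusted p = 0.208).

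**Figure D4:**
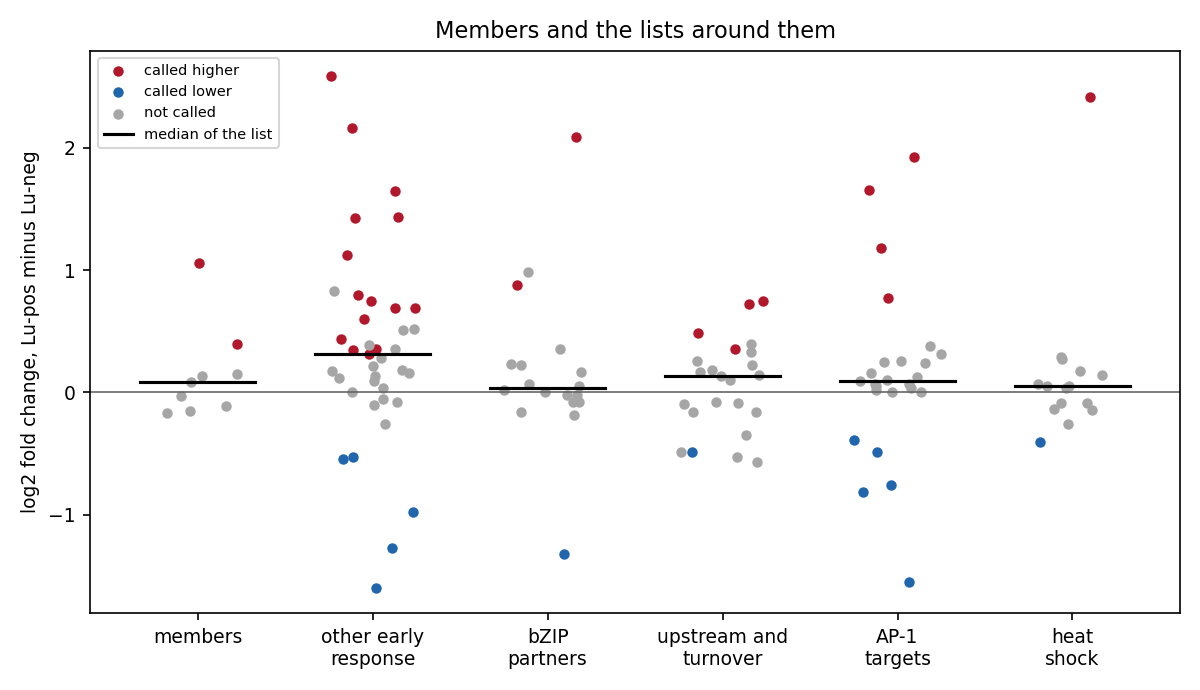
Log2 fold change, Lu-pos minus Lu-neg, of the 9 measured members and of the genes of 5 further lists, with called genes in red (higher) or blue (lower), others in grey, and the median of each list as a black line; points are spread sideways at random. The other early response genes have 15 red points and a median of 0.32, the members 2 and a median of 0.08.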

How the data were processed

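Luminal cells of 7 pools were sorted into Lu-pos and Lu-neg samples, and each RNA sample was amplified and read on 1 Affymetrix whole-transcript mouse array. The values the authors deposited are log2 intensities, 1 per probe set. RMA and the Expression Console of Affymetrix are named in the submitters' processing notes without versions. Values were used as deposited. There is no read depth; the number of arrays limits the precision. Of 41345 probe sets, 23521 carry 1 gene symbol, 1820 several and 16004 none in the annotation used; the brightest stood for each of 22180 genes. The populations were compared (Lu-pos minus Lu-neg) by limma 3.58.1 in R 4.3.3 (lmFit, eBayes) with the pool as a block, and Benjamini-Hochberg adjusted p-values under 0.05 over all genes were called. The samples are paired by the study's description, and the replicate number in the sample titles gives the pool; deviations from the group means correlated within each pair at between 0.184 and 0.316. Background was the 95th percentile of the mean levels of 1394 receptor genes. The fit was tested on simulated data. Promoter sequences and gene names came from RefSeq tables of assembly GRCm38.p6. Genes were named by rule: every member, up to 2 called rises and 2 called falls with the largest change in each list, and the 5 genes nearest to Fos. Members and lists were chosen with earlier results of these data known. Alternatives were no block, the methods' t-test, other eBayes settings, array weights, a filter on level, the mean of probe sets, 2 scalings, pools 1 to 3 or 4 to 7 alone, and leaving out each pool.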

Additional observations from a re-analysis of the deposited data

Results flagged for a closer look

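Among 60 groups of 7 arrays, those of the members and of the named list genes in each population, 3 held an array set apart from the others, and chance flags about 1 group in 20. No group of a member did. In Lu-pos cells Tgfb1 was lowest in pool 3, at 4.99. In Lu-neg cells Mt2 was lowest in pool 3, at 10.31, and Nr4a2 was highest in pool 2, at 6.99.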

How the results depend on the processing

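The count of 2 called members held without the pool as a block, with trend and robust eBayes, with dim genes left out, with the mean of probe sets and with both scalings. It was 1 with array weights and 1 under the methods' t-test, uncorrected and past 1.5-fold, which leaves out Ier3 by its fold alone. It was 0 under that test with Benjamini-Hochberg adjustment, where Fosl2 had an adjusted p = 0.0507. It was 0 in pools 1 to 3 alone and 0 in pools 4 to 7 alone, where fewer arrays entered and Fosl2 had log2 fold changes of 1.37 and 0.83 (limma adjusted p = 0.0563 and 0.058). Leaving out 1 pool gave between 1 and 2. The number of members at or past the 90th percentile of spread between pools was 0 in all settings run but the median absolute deviation, where it was 1, Fosl2; the cause was not tested. The sign of Jun turned with housekeeping scaling (0.0279), 75th percentile scaling (0.0471) and pools 1 to 3 alone (0.10), and its log2 fold change lay between -0.0983 and 0.0233 with 1 pool left out. That of Jund was 0.0467 in pools 1 to 3 alone, and that of Egr1 -0.0325 in pools 4 to 7 alone. None of these values of Jun, Jund and Egr1 was called. Without the pool as a block the count of called members was 2, with limma adjusted p = 0.00678 for Fosl2 and 0.0487 for Ier3, and 12 of the other early response genes were higher and 4 lower. Alternatives on that list were added after the data were seen. They moved the 15 higher genes of that list to 8 in pools 1 to 3, 5 in pools 4 to 7 and 9 under the adjusted t-test, and the 5 lower genes to 2, 3 and 2, and to 3 under the uncorrected t-test. Over all genes the adjusted t-test called 341 higher and 483 lower, and the uncorrected one 724 and 1037. Pools 1 to 3 gave 459 and 489, and pools 4 to 7 gave 296 and 515.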
